A study of Mus musculus with 2 samples.

Results

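The genes described here are 50 transcripts that mouse cells make mainly in the G2 and M phases of the cell cycle, when the replicated chromosomes are condensed, attached to the spindle and separated. They were taken from a fixed list of symbols, and all 50 were found among the 27998 genes of both deposited matrices. The cells were αLPs, lymphoid progenitors that carry the integrin α4β7, sorted as live Lin−CD45+CD127+Flt3−α4β7+CD25− cells from untreated wild-type B6 mice. Of the libraries, 1 came from fetal liver at embryonic stage E14.5 and 1 from adult bone marrow. The labels give an age of 6 to 8 weeks on both samples, the fetal one included, and do not say how many animals were pooled. Both carry the same batch label. Since each tissue was represented by a single library, the tissues could not be compared by a test, and every interval covers counting error only.

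Entry into mitosis is driven by the kinase Cdk1 with its B-type cyclins, and exit from it by the anaphase-promoting complex, which marks cyclins and other proteins for destruction with ubiquitin. Aurora kinases, the kinetochore and the spindle motors align and pull apart the chromosomes in between. Many of these genes share a promoter layout, an NF-Y box (letters CCAAT) and a cell cycle genes homology region, or CHR (letters TTTGAA), through which the DREAM complex keeps them off in resting cells and B-Myb and FoxM1 act in dividing cells. In lymphoid progenitors their transcripts are widely used to tell cycling from resting cells.

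The fetal liver library held 8583 cells after filtering, at a median of 9294 UMIs (distinct tagged RNA molecules) and 2331 genes per cell, and the bone marrow library 7258 cells, at a median of 3447.5 UMIs and 1249 genes. The gap in median depth was 2.70-fold, so shares of cells with a UMI were compared after each cell was thinned at random to 2000 UMIs, which left out 131 fetal liver and 1335 bone marrow cells that were shallower. Of the genes behind the sort, Il7r (CD127) stood at 178 counts per 1000000 UMIs (CPM) in the fetal liver library against 417 in the bone marrow library, and Itgb7 at 47.9 and 61.8, while Flt3 stood at 1.45 and 1.20 and Il2ra (CD25) at 1.08 and 7.78. The fetal liver library held 23018 UMIs of Xist, an RNA of female cells, and 1796 of the Y-linked Ddx3y, and the bone marrow library 2 and 2235, so sex differed between the libraries along with age and tissue. The libraries shared 19 cell barcodes.

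The promoter letters show what many of the genes have in common, some of it shared with S phase genes. RefSeq promoters, running from 250 bases before to 50 bases after the annotated start site on build GRCm38.p6, were found for 44 of the 50 symbols and gave 49 sequences, since some genes have several starts. Cdca2, Dlgap5, Tpx2, Aurkb, Smc4 and Cdc25c had no entry. The 120 bases that end at the start site are shown for 8 genes, the first 6 because they hold both motifs and the others because they lack the CHR letters (Cks2) or both (G2e3). They read 5′ to 3′ along the gene, with capitals at TTTGAA and CCAAT on either strand (TTCAAA and ATTGG on the other one). In GENCODE coordinates the stretches of G2e3 (gene at 51348061 to 51376986) and Lbr (181815335 to 181843046) lie wholly inside the gene. What they hold or lack thus depends on the RefSeq start.
Cdk1 (chr10:69352913-69353032, minus strand): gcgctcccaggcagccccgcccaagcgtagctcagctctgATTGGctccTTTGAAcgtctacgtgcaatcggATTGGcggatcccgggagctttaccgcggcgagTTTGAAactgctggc
Ube2c (chr2:164769809-164769928, plus strand): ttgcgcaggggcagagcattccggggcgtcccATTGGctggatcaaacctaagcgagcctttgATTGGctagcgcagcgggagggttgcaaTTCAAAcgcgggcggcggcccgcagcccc
Cdc20 (chr4:118437344-118437463, minus strand): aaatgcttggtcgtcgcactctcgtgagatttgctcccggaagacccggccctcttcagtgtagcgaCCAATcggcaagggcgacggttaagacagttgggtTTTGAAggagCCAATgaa
Top2a (chr11:99024190-99024309, minus strand): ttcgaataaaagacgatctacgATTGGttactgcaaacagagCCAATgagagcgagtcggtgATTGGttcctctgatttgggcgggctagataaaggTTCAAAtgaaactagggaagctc
Kif11 (chr19:37376262-37376381, plus strand): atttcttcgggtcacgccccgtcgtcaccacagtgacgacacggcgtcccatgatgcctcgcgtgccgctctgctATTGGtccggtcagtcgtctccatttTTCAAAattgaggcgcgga
Lbr (chr1:181842402-181842521, minus strand): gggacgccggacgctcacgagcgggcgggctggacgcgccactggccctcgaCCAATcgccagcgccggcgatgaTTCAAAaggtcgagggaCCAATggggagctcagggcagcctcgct
Cks2 (chr13:51645112-51645231, plus strand): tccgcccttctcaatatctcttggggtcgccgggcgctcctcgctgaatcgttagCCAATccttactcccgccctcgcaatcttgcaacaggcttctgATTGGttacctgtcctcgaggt
G2e3 (chr12:51348110-51348229, plus strand): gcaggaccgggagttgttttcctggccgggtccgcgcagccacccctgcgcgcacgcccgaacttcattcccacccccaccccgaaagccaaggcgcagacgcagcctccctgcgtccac

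CHR letters stood in 32 of the 49 promoters (65.3%), against 17.9% of the 32851 promoters in the table. NF-Y letters stood in 37 (75.5%), against 37.4% of all, and both in 26 (53.1%), against 6.95%. Between 100 bases before and 50 bases after the start, where the CHR usually lies, 27 of the 49 promoters (55.1%) held TTTGAA, against 8.01% of all. The E2F letters TTTGGCGC or TTTCCCGC, typical of genes of the G1 to S transition, stood in 2 (4.08%), against 1.56% of all, and GGGCGG, the letters of an Sp site, in 36 (73.5%), against 35.7%. Of 42 S phase genes 30 had an entry, and their promoters held CHR letters in 18.2% and E2F letters in 30.3%. NF-Y letters stood in 66.7% of the S phase promoters and Sp letters in 63.6%, so both were common in that list too. Cdk1 held TTTGAA at 71 and at 15 bases before its start, Ube2c at 29, Cdc20 at 18, Top2a at 179 and 23, Kif11 at 19 and Lbr at 45. In 28 promoters there were 2 or more CCAAT matches, and 6 held neither motif. A CHR match did not go with a larger difference between the libraries. The median log2 ratio, fetal liver over bone marrow, was 1.37 for the 26 measured genes with a CHR match and 1.71 for the 9 without.

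**Figure D1:**
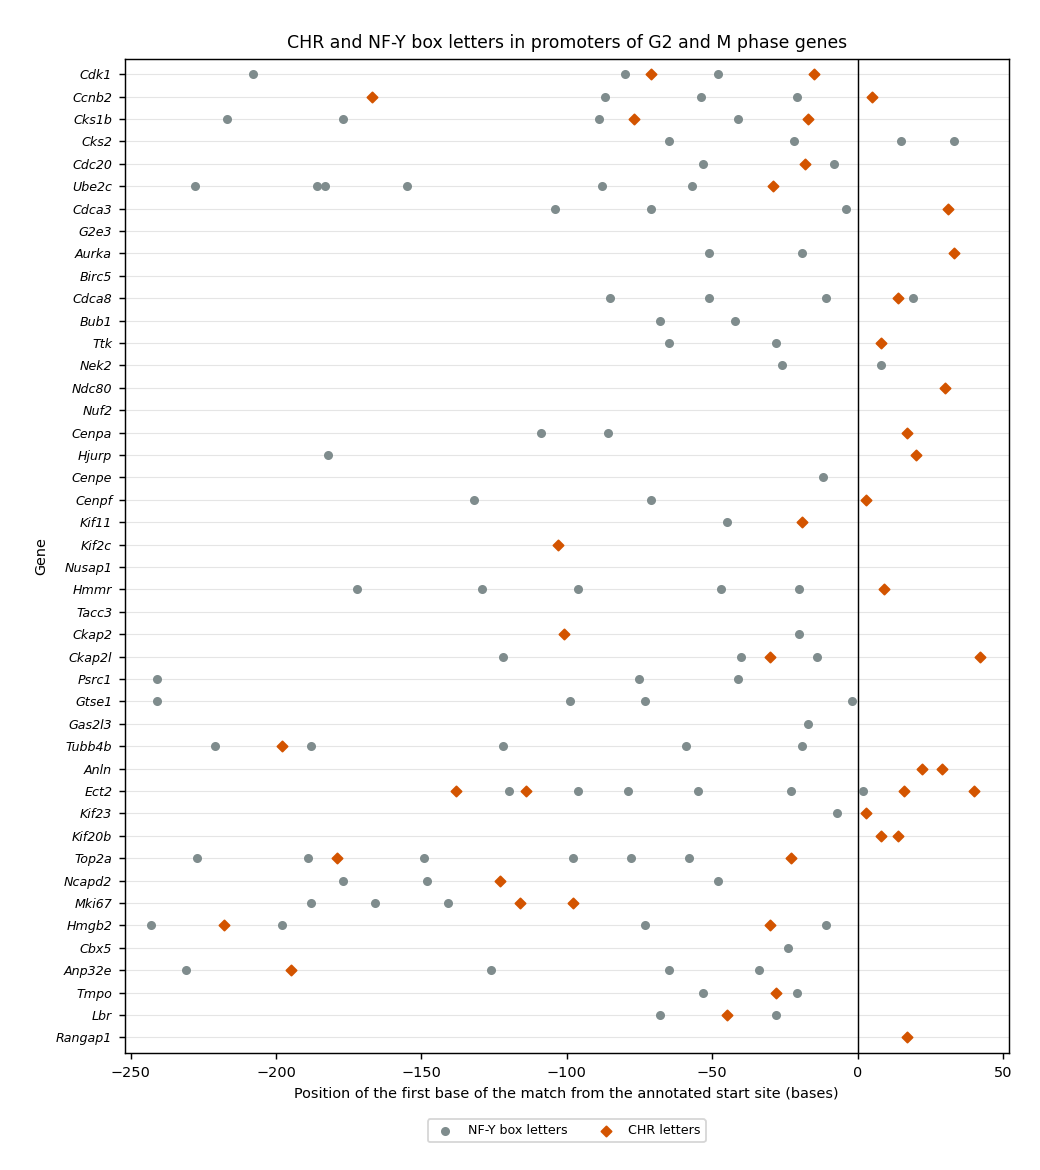
Matches to the NF-Y letters (CCAAT, grey circles) and the CHR letters (TTTGAA, orange diamonds) in the promoters of the 44 matched genes. The x axis is the position of the first base of the match from the annotated start site, in bases, with matches of genes that have several starts drawn on the same row. CHR matches gather near the start, as at −15 in Cdk1 and −29 in Ube2c, and 27 of the 49 promoters hold one between 100 bases before and 50 bases after it.

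Over the whole libraries nearly every G2 and M phase transcript was more abundant in fetal liver. A gene counted as measured if it reached 10 CPM in either library, which 40 of the 50 reached, 8 of them through fetal liver alone. Of these 40, 29 exceeded the bone marrow level by 2-fold or more, 0 fell as far below it, and 11 lay within 2-fold. Among all 6938 measured genes, 7.25% passed this fold towards fetal liver and 10.9% towards bone marrow. The median log2 ratio was 1.49 over the 40 genes, with a range of −0.14 to 2.39, and 0.01 over all measured genes. The counting interval lay above 0 for 37 of the 40 genes, below 0 for Lbr, and held 0 for G2e3 and Hjurp. At these depths the interval lay above 0 for 44.8% and below 0 for 44.4% of all measured genes. Since the minimum favours genes that are high in 1 library, the ratio was also taken over all 50 genes with 1 CPM added to each value, where the median was 1.27 and 33 genes passed 2-fold towards fetal liver, against 4.33% of all genes with a UMI (0 genes and 6.12% towards bone marrow). In bulk sums such as these, fewer cells that hold a transcript and less of it per cell cannot be told apart. Further on, cells gated by other genes are compared. Such a gate cannot fully make that division, since a lower level per cell would also leave fewer cells in it.

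**Figure D2:**
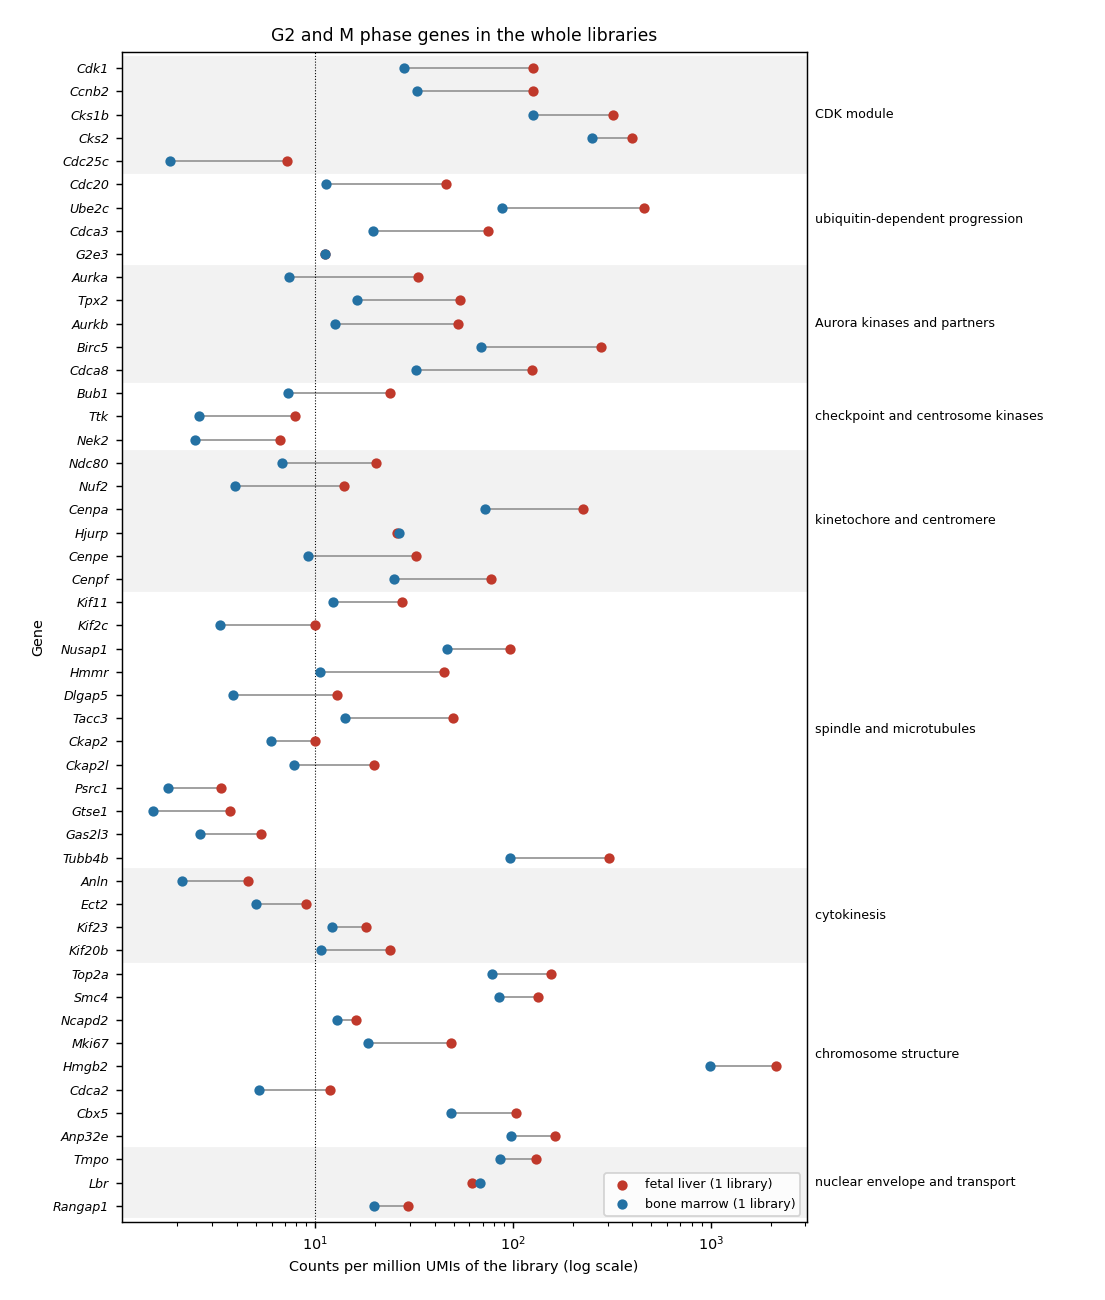
Level of each G2 and M phase gene in the 2 libraries, in counts per 1000000 UMIs on a log axis, with 1 point for each library, the genes grouped by role and a dotted line at 10 CPM. The fetal liver point lies to the right for nearly all genes, as for Ube2c (460 against 87.7), while the points of Lbr (62.0 and 68.1), Hjurp (25.8 and 26.5) and G2e3 (11.2 and 11.2) nearly coincide.

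The kinase that starts mitosis and its direct partners were 1.61-fold to 4.51-fold higher in fetal liver. Cdk1, on chromosome 10 (69335146 to 69352938, minus strand), stood at 127 CPM in fetal liver against 28.1 CPM in bone marrow, which is a log2 ratio of 2.17 (95% interval 2.07 to 2.28). Its cyclin partner Ccnb2 stood at 127 and 32.4 CPM, with a ratio of 1.96 (1.87 to 2.06). Both Cks proteins bind Cdk1 and help it to phosphorylate its substrates, and their transcripts differed less. Cks1b was at 319 and 126 CPM, a log2 ratio of 1.34 (1.29 to 1.38), and Cks2 at 401 and 249 CPM, a ratio of 0.69 (0.65 to 0.72). The intervals of the pair did not overlap. Cdc25c, the phosphatase that activates Cdk1, stayed under the minimum at 7.18 and 1.84 CPM.

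Genes of ubiquitin-dependent progression held both the largest difference and a flat one. Ube2c, the ubiquitin-conjugating enzyme of the anaphase-promoting complex, on chromosome 2 (164769898 to 164778822, plus strand), stood at 460 CPM in fetal liver against 87.7 in bone marrow, a log2 ratio of 2.39 (2.33 to 2.45). Cdc20, the activator of that complex, was at 45.9 and 11.4 CPM (ratio 2.02, interval 1.86 to 2.18), and Cdca3, a trigger of mitotic entry, at 74.4 and 19.6 CPM (1.92, interval 1.80 to 2.05). G2e3, a ubiquitin ligase named for its expression in G2, stood at 11.2 CPM in both libraries, a ratio of 0.00 (−0.18 to 0.18). It is the only gene of its role whose interval held 0.

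All 5 Aurora genes passed 2-fold towards fetal liver, and their median log2 ratio was 2.02. Aurka and its activator Tpx2 build the spindle poles. Aurka stood at 33.2 and 7.38 CPM (ratio 2.17) and Tpx2 at 53.5 and 16.1 CPM (1.73, interval 1.60 to 1.87). Aurkb, Birc5 (survivin) and Cdca8 (borealin) are subunits of the chromosomal passenger complex, which corrects faulty attachments to the spindle. Birc5 stood at 279 CPM in fetal liver against 68.6 in bone marrow, a ratio of 2.02 (1.96 to 2.09). Aurkb stood at 52.6 and 12.6 CPM (2.06, interval 1.91 to 2.22), and Cdca8 at 125 and 32.4 CPM (1.95, interval 1.85 to 2.04). The 3 intervals overlapped. Incenp, the scaffold of the same complex and one of the genes used further on as a gate, had a lower ratio of 1.32 (1.17 to 1.47), apart from those 3; it is named here after its value was seen. Of the checkpoint and centrosome kinases, Bub1 was at 23.7 and 7.25 CPM (1.71), while Ttk and Nek2 stayed under the minimum, with ratios of 1.61 and 1.42.

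Kinetochore genes fell into 5 that were about 3-fold higher in fetal liver and 1 that was level. Cenpa, the histone variant that marks centromeres, stood at 226 and 72.2 CPM, for a log2 ratio of 1.65 (1.59 to 1.71). Cenpf, a large protein of the outer kinetochore, was at 77.0 and 25.1 CPM (1.62, interval 1.51 to 1.73). Ndc80 and Nuf2, which together grip microtubules, had ratios of 1.58 and 1.82, and the kinetochore motor Cenpe 1.82. Hjurp, the chaperone that loads Cenpa onto centromeres, stood at 25.8 CPM in fetal liver against 26.5 in bone marrow, a ratio of −0.04 (−0.16 to 0.08), or 0.12 with a median-ratio size factor. The chaperone and its cargo thus differed in their ratios by more than counting error.

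Of the 12 spindle genes, 7 were measured and all 7 passed 2-fold towards fetal liver. Tubb4b, a β-tubulin, stood at 304 and 95.8 CPM, for a log2 ratio of 1.67 (1.61 to 1.72). Tubulin genes are near-identical in places, and how reads shared between copies were counted is not given in the sources used here, which makes this value less certain than its interval. The same holds for Cks1b, Cks2 and Hmgb2, which have close copies elsewhere in the genome. Nusap1, which bundles microtubules around chromosomes, showed the smallest ratio among the 7, at 95.9 and 46.1 CPM (1.06, interval 0.97 to 1.14). Hmmr, a spindle pole protein, stood at 44.7 and 10.5 CPM (2.09), Tacc3, which stabilises spindle fibres, at 49.8 and 14.1 CPM (1.82), and the motor Kif11, which pushes the poles apart, at 27.3 and 12.3 CPM (1.15). Dlgap5 and Ckap2l had ratios of 1.75 and 1.34. Under the minimum were Kif2c (ratio 1.60), Gtse1 (1.30), Gas2l3 (1.03), Psrc1 (0.88) and Ckap2 (0.73). Among the genes of cytokinesis, the final split of the cell, Kif20b had a ratio of 1.16 and Kif23, a motor of the central spindle, 0.57, while Anln (1.12) and Ect2 (0.84) were under the minimum.

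Chromosome structure genes were higher in fetal liver by smaller factors; they had a median log2 ratio of 1.04 and 4 of 8 past 2-fold. Hmgb2, a DNA-bending protein of dividing cells, stood at 2120 CPM in fetal liver against 989 in bone marrow, a ratio of 1.10 (1.08 to 1.12). Top2a, the topoisomerase that untangles sister chromatids, was at 156 and 78.5 CPM (0.99, interval 0.92 to 1.05), and Cbx5, a heterochromatin protein, at 104 and 48.7 CPM (1.09, interval 1.01 to 1.17). Mki67, whose protein is the Ki-67 antigen, stood at 48.4 and 18.4 CPM (1.39). The condensin subunits Smc4 and Ncapd2, which compact chromosomes, had ratios of 0.66 (133 and 84.4 CPM) and 0.33. Cdca2 and the histone chaperone Anp32e had ratios of 1.19 and 0.73.

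The 3 nuclear envelope and transport genes all lay within 2-fold. Tmpo, a lamina-associated protein, stood at 130 and 86.1 CPM, for a log2 ratio of 0.59 (0.53 to 0.66), and Rangap1, the GTPase activator of Ran, at 29.4 and 19.9 CPM (0.56). Lbr, the lamin B receptor, on chromosome 1 (181815335 to 181843046, minus strand), was at 62.0 CPM in fetal liver against 68.1 in bone marrow, a ratio of −0.14 (−0.21 to −0.06). Its direction turned with the scaling: a median-ratio size factor, which raised the median of all genes by 0.179, gave 0.03.

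The higher levels in fetal liver were also seen as shares of cells at equal depth. After thinning, the share of cells with a UMI was higher in fetal liver, with intervals apart, for 47 of the 50 genes, and 0 genes had intervals apart the other way. Of all genes with at least 10 UMIs in these cells, 24.5% had intervals apart towards fetal liver and 27.4% towards bone marrow. The median share over the 50 genes was 5.40% in fetal liver and 2.00% in bone marrow. Unthinned, it was 22.6% and 4.32%. Ube2c was found in 24.4% of fetal liver cells and 4.44% of bone marrow cells, Birc5 in 28.0% and 5.79%, and Hmgb2 in 83.2% and 52.7%. The exceptions were G2e3 (2.05% and 2.35%), Hjurp (4.97% and 5.01%) and Lbr (11.2% and 12.1%), whose intervals overlapped. Per cell at this depth, 40 of the 50 genes passed 2-fold towards fetal liver and 0 towards bone marrow, and the median log2 ratio was 1.72. Of all genes past the same count, 11.4% passed that fold towards fetal liver and 16.1% towards bone marrow.

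To see which cells carried the transcripts, cells were sorted into states by genes outside the 50. The mitotic gate took cells with a UMI of at least 3 of 30 other mitotic genes, such as Ccnb1, Plk1 and Ccna2. The S gate took cells with at most 1 of those and at least 4 of 42 S phase genes, and gate-negative cells had 0 of the mitotic genes and at most 1 S phase gene. At 2000 UMIs the mitotic gate held 2009 of 8452 fetal liver cells, or 23.8% (exact interval 22.9 to 24.7), and 338 of 5923 bone marrow cells, or 5.71% (5.13 to 6.33), a share 4.17-fold higher in fetal liver. The S gate held 29.0% and 11.1%, and the gate-negative state 10.3% and 42.4%. These shares depend on the depth and on the gate, which has no gap at its limit: 1271 fetal liver and 296 bone marrow cells held 2 gate genes, just outside it, and 796 and 127 held 3, just inside. At 3000 UMIs, which kept 8273 fetal liver and 4310 bone marrow cells, the shares were 34.6% and 10.4%. Without the 6% of cells with the most UMIs they were 22.4% and 3.86%. Droplets with a pair of cells could be among those left out, but doublets were not identified, and mitotic-gated cells were deeper too. Before thinning, mitotic-gated cells held a median of 12366 UMIs in fetal liver against 7548.5 in bone marrow, and gate-negative cells 5842.5 and 3427. Thinning leaves out the shallower cells, which were more numerous in bone marrow, and the effect of this on the shares was not tested.

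The 50 genes followed the gate in both libraries. All 50 had a higher share of cells with a UMI in the mitotic gate than in gate-negative cells, with intervals apart for 48 genes in fetal liver and 50 in bone marrow, against 8.73% and 9.58% of all genes with at least 10 UMIs in the library. A mitotic-gated cell held a median of 10 of the 50 genes in fetal liver and of 11 in bone marrow, against 2 and 1 in gate-negative cells. Top2a was found in 57.7% of mitotic-gated and 1.75% of gate-negative bone marrow cells, and in 39.9% and 1.95% of those of fetal liver. Ube2c fell from 52.1% to 0.478% between these states in bone marrow and from 61.6% to 4.46% in fetal liver. The mitotic gate, with 5.71% of bone marrow cells, held a median of 50.1% of a gene's UMIs there, and in fetal liver 57.8%.

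**Figure D3:**
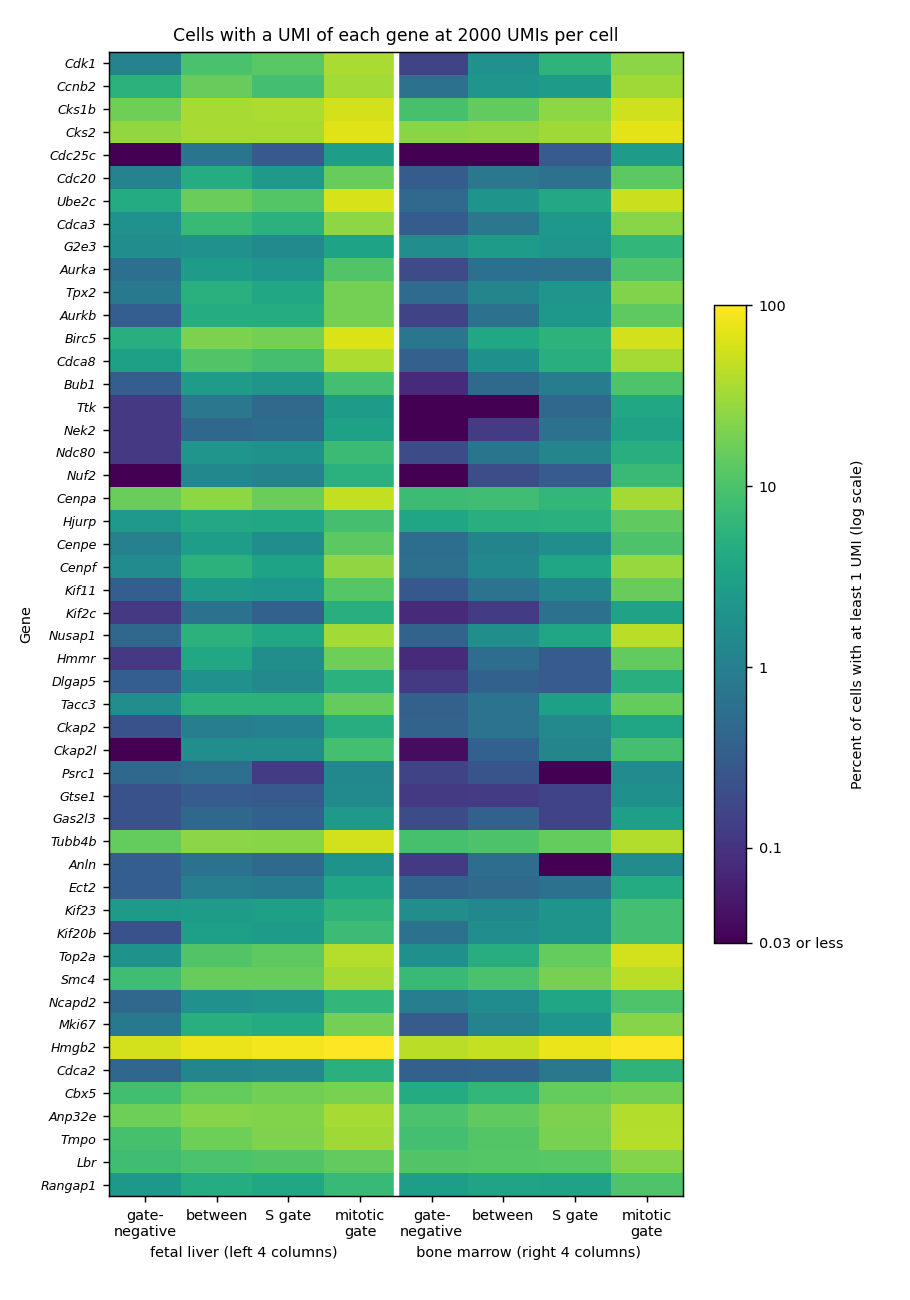
Percent of cells with at least 1 UMI of each gene, at 2000 UMIs per cell, in the 4 states of each library (fetal liver in the left 4 columns, bone marrow in the right 4), coloured on a log scale. The mitotic gate column is the brightest in both libraries for most genes, as for Top2a (39.9% and 57.7%), while Hmgb2, Cks2 and Lbr keep colour in gate-negative cells.

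Some of the genes also had UMIs in many cells outside the gate. A UMI was found in at least 5% of gate-negative bone marrow cells for 9 genes, namely Cks1b, Cks2, Cenpa, Tubb4b, Smc4, Hmgb2, Anp32e, Tmpo and Lbr. Hmgb2 was found in 43.5% of those cells, Cks2 in 23.5% and Lbr in 11.1%. Genes of like level in the whole bone marrow library differed in this share. Lbr stood at 68.1 CPM and 11.1% of gate-negative cells, Top2a at 78.5 CPM and 1.75%, and Ube2c at 87.7 CPM and 0.478%. Free RNA in the droplets can give such UMIs. Its level was not measured, and its part in these shares was not tested. The limit of 5% was chosen after the values were seen.

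Among mitotic-gated cells the difference between the libraries was mostly gone. Over the 50 genes, each with at least 10 UMIs in the gated cells of both libraries together, the median log2 ratio per cell was −0.05 (range −0.93 to 0.83), against 1.72 over all thinned cells. None of the 50 was 2-fold apart in either direction with this seed, depth and gate (1 was with another seed, at 3000 UMIs, with at least 2 gate genes or without the 6% of cells with the most UMIs, 3 with at least 5 gate genes and 4 at 1000 UMIs), while of all genes past the same count 12.6% were higher in fetal liver by that fold and 11.4% in bone marrow. Low counts inflate the latter: with at least 100 UMIs, 0 of 41 of the genes and 11.1% of all genes were 2-fold apart, and the median absolute log2 ratio was 0.31 and 0.36. The gate itself asks for the same number of mitotic genes in every gated cell of both libraries, and its part in this likeness was not tested.

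Within the gate, smaller differences ran in both directions. The gated cells differed in make-up: the NK or ILC1 gate described further on held 38.6% of them in fetal liver and 7.99% in bone marrow, the ILC2 gate 7.62% and 16.9%, and the lymphoid progenitor gate 0.0996% and 8.88%. The part of this in the values that follow was not tested. The interval lay above 0 for 5 genes: Tubb4b (log2 ratio 0.83, interval 0.62 to 1.04), Cdk1 (0.62, interval 0.33 to 0.93), Ube2c (0.53, interval 0.40 to 0.67), Aurkb (0.53) and Cenpa (0.29). It lay below 0 for 12: G2e3 (−0.93), Hjurp (−0.72), Kif23 (−0.72), Top2a (−0.71, interval −0.89 to −0.53), Ncapd2 (−0.69), Nusap1 (−0.62), Tmpo (−0.55), Lbr (−0.51), Mki67 (−0.49), Smc4 (−0.41), Anp32e (−0.27) and Hmgb2 (−0.24). Of these 12, 6 are of the chromosome structure role, which has 8 genes in all. The interval held 0 for 33 genes, among them Ccnb2 (0.01) and Birc5 (0.14). Of all genes with at least 10 UMIs in the gate, 11.2% had an interval above 0 and 13.3% one below. With at least 100 UMIs it was 21.6% and 17.7% of all genes, and 5 and 11 of the 41 genes described here. Taken in both directions together, intervals off 0 at this count were about as common among these genes as among all genes. At 1000 UMIs per cell the signs of 4 of the 17 changed, with G2e3 at 0.33, Kif23 at 0.50, Mki67 at 0.11 and Cenpa at −0.01. Over gate-negative cells 35 genes had at least 10 UMIs, with a median log2 ratio of 0.69, and 14 passed 2-fold towards fetal liver and 2 towards bone marrow, where 8.90% and 15.0% of all genes passed.

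**Figure D4:**
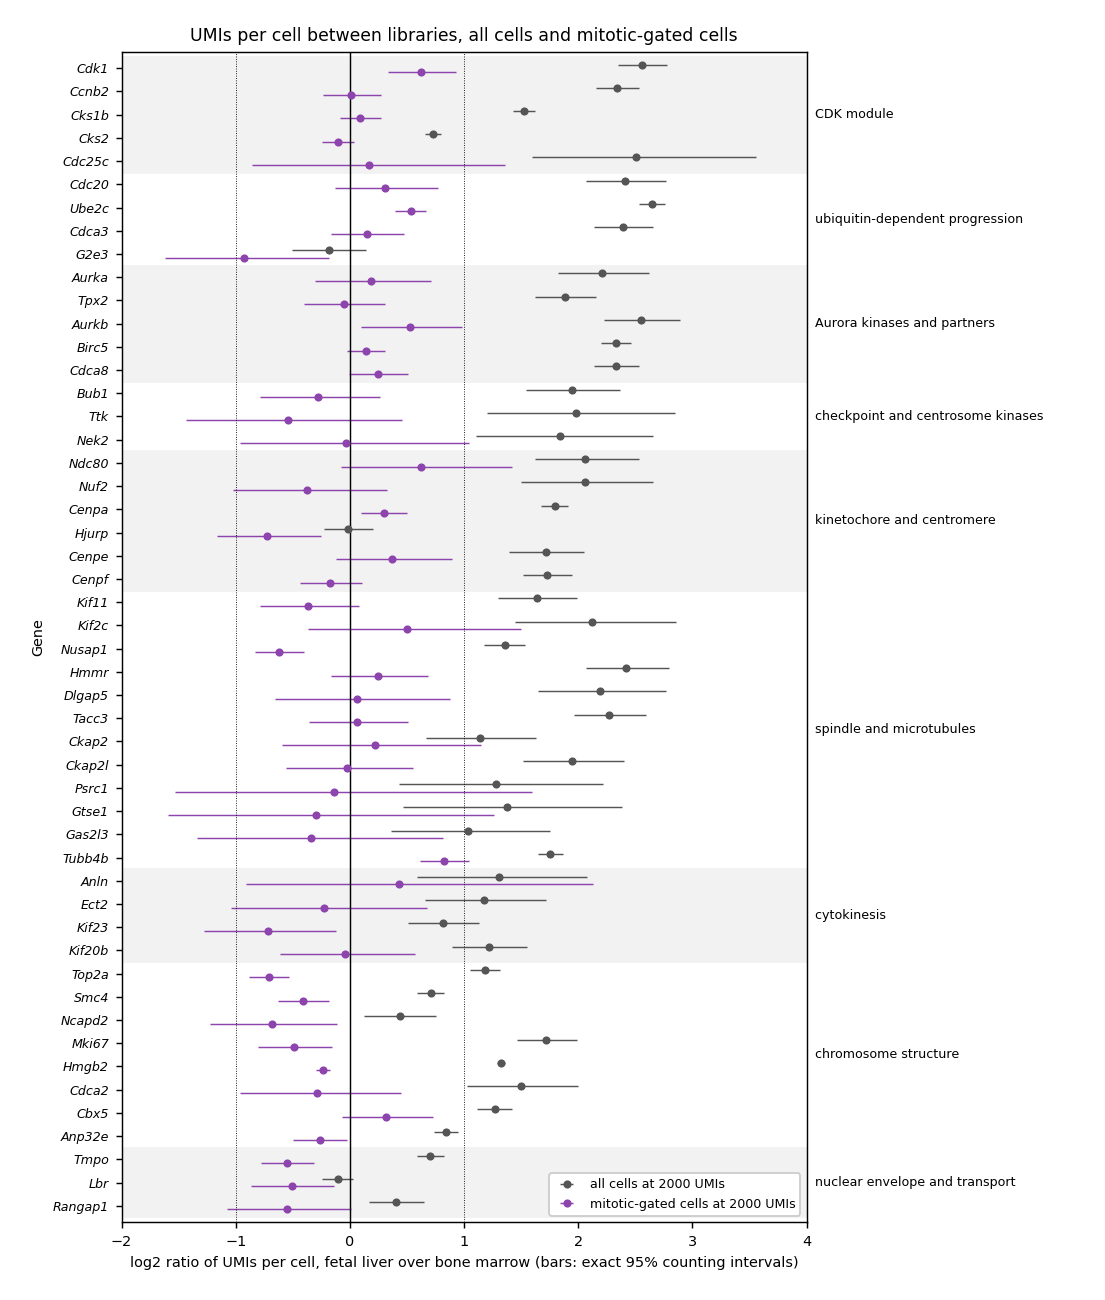
Log2 ratio of UMIs per cell, fetal liver over bone marrow, of each gene over all thinned cells (grey) and over mitotic-gated cells (purple), with exact 95% counting intervals as bars, lines at a 2-fold difference either way and genes grouped by role. The grey points lie mostly right of 1, with a median of 1.72, and the purple points lie around 0, with a median of −0.05. Tubb4b is the purple point farthest to the right (0.83) and G2e3 the one farthest to the left (−0.93).

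The gated cells were then divided by S phase genes, at least 4 with a UMI (S-high) or at most 1 (S-low), which separates cells by how many replication transcripts were detected. There were 1440 S-high and 161 S-low cells in fetal liver and 244 and 44 in bone marrow, so bone marrow values are coarse. Ccnb2 was found in 54.7% of S-low and 24.9% of S-high cells of fetal liver, a log2 ratio of S-high over S-low of −1.25 (−1.54 to −0.96), and in 52.3% and 23.4% of those of bone marrow (−1.43, interval −2.0 to −0.84). Cenpa, whose protein is loaded onto centromeres after mitosis, had ratios of −1.39 in fetal liver and −1.55 in bone marrow. Top2a ran the other way, at 0.44 (0.10 to 0.80) and 1.12 (0.51 to 1.81), as did Tmpo, at 0.46 and 0.85. In fetal liver 38 of 50 genes were higher in S-low cells, 11 of them at least 2-fold, and 1 was at least 2-fold higher in S-high cells, where 7.45% and 13.8% of all genes passed. In bone marrow 15 of 40 genes were higher in S-low cells, 4 at least 2-fold, and 3 were at least 2-fold higher in S-high cells, where 10.5% and 19.2% of all genes passed. The median log2 ratio, S-high over S-low, was −0.35 in fetal liver, against 0.02 over all genes. In bone marrow it was 0.09, against 0.04. Across the 40 genes with enough UMIs in both libraries, the ratios correlated with a Spearman rho of 0.63 and a Pearson r of 0.68, and 24 had the same sign. These are genes of the same cells and not independent replicates.

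The higher mitotic share of fetal liver was found in 4 of 5 lineage gates, set by marker genes of each fate. A cell was assigned to the fate with the most detected markers, at least 2 and without a tie, and these gates describe marker expression and not committed cell types. In the NK or ILC1 gate 776 of 2801 fetal liver cells (27.7%, interval 26.1 to 29.4) and 27 of 835 bone marrow cells (3.23%, interval 2.14 to 4.67) were mitotic-gated. The ILC2 gate showed 30.8% (26.8 to 35.0) and 5.13% (3.91 to 6.60). The gate for progenitors that express PLZF (Zbtb16) showed 16.8% (13.7 to 20.4) and 1.33% (0.729 to 2.22). In the LTi or ILC3 gate the shares were nearer, 10.4% (8.72 to 12.2) and 4.85% (3.03 to 7.32). Within fetal liver the LTi or ILC3 gate was thus the least mitotic of these 4. The lymphoid progenitor gate, marked by Rag1, Rag2, Dntt and others, held 30 mitotic-gated of 135 bone marrow cells (22.2%, interval 15.5 to 30.2), the highest of the 5 gates in that library, and 2 of 16 in fetal liver (12.5%, interval 1.55 to 38.3), too few to compare. The S gate held a higher share of fetal liver than of bone marrow cells in the same 4 gates, with 24.4% against 5.70% in the PLZF gate, 32.0% against 8.37% in the ILC2 gate, 33.0% against 12.5% in the NK or ILC1 gate and 22.2% against 10.2% in the LTi or ILC3 gate. Cells in no gate were mitotic in 24.4% of cases in fetal liver against 8.00% in bone marrow, and these cells made up 55.0% of the mitotic-gated cells of bone marrow.

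**Figure D5:**
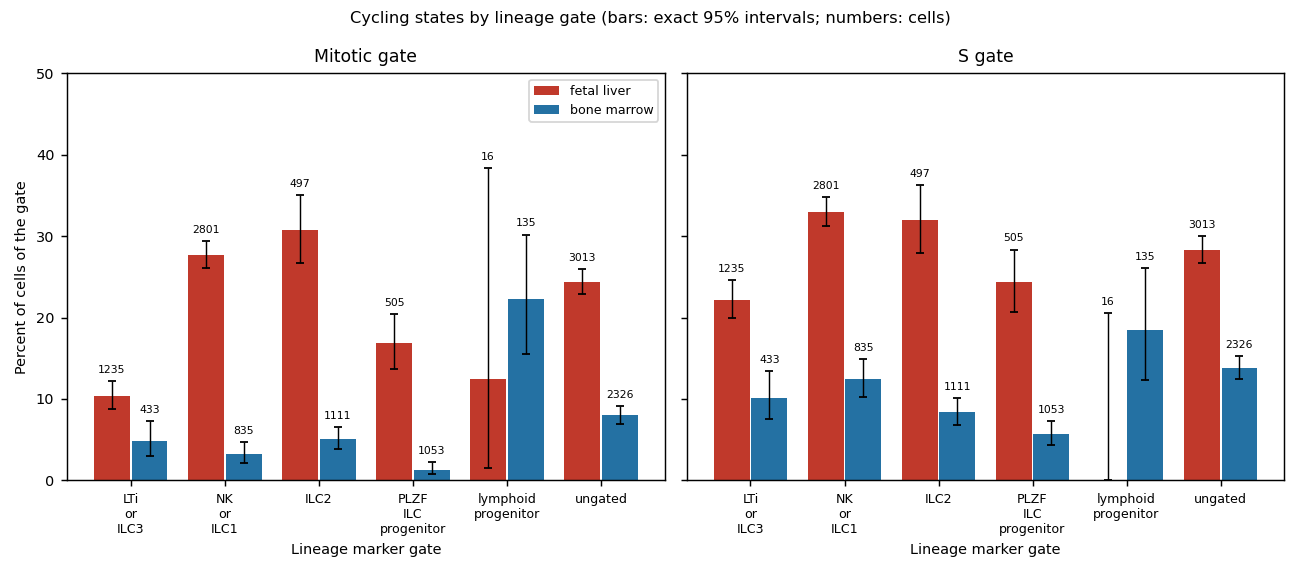
Percent of cells in the mitotic gate (left panel) and in the S gate (right panel) within each lineage gate and among ungated cells, at 2000 UMIs per cell, with exact 95% intervals as thin lines and the number of cells above each bar. In the left panel fetal liver is higher with intervals apart in the LTi or ILC3, NK or ILC1, ILC2 and PLZF gates, and the lymphoid progenitor gate has the highest bone marrow share among the 5 (22.2%), with overlapping intervals.

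The gates also differed in the ratios of single genes. Over the genes with at least 10 UMIs in a gate, the median log2 ratio per cell was 2.54 in the PLZF gate (35 of 42 genes past 2-fold towards fetal liver), 2.30 in the NK or ILC1 gate (39 of 50), 2.03 in the ILC2 gate (38 of 45) and 0.94 in the LTi or ILC3 gate (19 of 41). The share of all genes that passed the same fold was 10.8%, 12.2%, 12.3% and 13.0% in these gates. The lymphoid progenitor gate held only 16 fetal liver cells. There 7 of 24 genes passed towards fetal liver and 1 towards bone marrow (13.7% and 21.6% of all genes), with a median of 0.21. The order of the point values varied from gene to gene, and whether it differed beyond counting error was not tested. The 10 UMIs count both libraries together, so some ratios rest on few bone marrow UMIs. In the PLZF gate Hmmr had 1 (log2 ratio 6.45, interval 3.90 to 11.8), as had Bub1 and Ckap2l. Of the 39 genes with at least 10 UMIs and a ratio in each of these 4 gates, 20 had their highest ratio in the PLZF gate, 11 in the ILC2 gate and 8 in the NK or ILC1 gate, and 34 had their lowest in the LTi or ILC3 gate. The same counts were not made over all genes, so these give the order of point values only. Ube2c was found in 18% of PLZF-gated fetal liver cells and 0.95% of those of bone marrow, a log2 ratio of 4.99 (4.30 to 5.76). Its ratio was 4.00 in the NK or ILC1 gate (28.2% and 2.28% of cells), 3.13 in the ILC2 gate and 1.26 (0.84 to 1.70) in the LTi or ILC3 gate. Top2a had ratios of 2.18, 1.83, 1.63 and 0.19 in the same order, and the last interval held 0 (−0.36 to 0.77). The intervals of Lbr held 0 in all 5 gates. Its ratio was −0.73 (−3.85 to 1.26) in the lymphoid progenitor gate, on 2 fetal liver UMIs, and −0.42 to 0.09 in the other 4 gates.

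Markers of cells that the sort should remove differed between the libraries too. The 10 B lineage markers summed to 154 CPM in fetal liver against 34.1 in bone marrow, with 0 and 1 of them at 0, the 9 myeloid markers to 171 and 19.9 CPM, with none at 0, and the 9 erythroid or megakaryocyte markers to 203 and 39.5 CPM, with 0 and 1 at 0. Mast or basophil markers summed to 219 and 218 CPM, T cell markers to 16.4 and 17.3, and hepatocyte or stroma markers to 2.85 and 3.71. In fetal liver 35.5% of the 172 cells in the B lineage gate and 38.5% of the 104 cells in the myeloid gate were mitotic-gated, while bone marrow held 0 and 6 cells in these gates. Without all cells gated on B, myeloid, erythroid, mast, T cell or hepatocyte markers, the mitotic share was 23.3% in fetal liver against 5.68% in bone marrow, and the median log2 ratio of the 40 measured genes was 1.47.

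Other mitotic genes and S phase genes were mostly higher in fetal liver, while most regulators of the cell cycle lay within 2-fold. Of the 30 mitotic genes used for the gate, 24 were measured and 21 passed 2-fold towards fetal liver; their median log2 ratio was 1.32. Among them Ccnb1, the main mitotic cyclin, stood at 39.7 CPM in fetal liver against 6.88 in bone marrow, a ratio of 2.53 (2.32 to 2.74). The kinase Plk1 had a ratio of 2.45, Ccna2 2.21 and the midzone protein Prc1 1.84. Of the 42 S phase genes, 41 were measured and 23 passed 2-fold in the same direction, with a median of 1.09. Of 26 regulators, 18 were measured, 1 passed 2-fold towards fetal liver and 3 towards bone marrow. Of all measured genes, 7.25% passed towards fetal liver and 10.9% towards bone marrow. The regulator counts are too small to set apart from these shares. The 4 regulators that passed are named for that reason. E2f1, an activator of S phase genes, stood at 21.8 and 10.2 CPM, a ratio of 1.09 (0.92 to 1.27). The inhibitors of cell cycle kinases Cdkn1a (p21) and Cdkn1b (p27) were higher in bone marrow, Cdkn1a at 30.6 CPM in fetal liver against 124 in bone marrow (−2.02, interval −2.09 to −1.94) and Cdkn1b at 27.8 and 73.7 CPM (−1.41). Wee1, the kinase that holds Cdk1 inactive, was at 6.49 and 18.6 CPM (−1.52, interval −1.69 to −1.35).

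In the whole libraries most transcription factors that act on the CHR, the NF-Y box and E2F sites lay within 2-fold. Mybl2 and E2f1 passed it towards fetal liver, and several of the others were under the minimum. Foxm1 stood at 5.06 and 3.17 CPM (ratio 0.67, interval 0.35 to 1.01) and Mybl2, which encodes B-Myb, at 8.01 and 3.44 CPM (1.22, interval 0.92 to 1.53), both under the minimum. Of the DREAM core, Lin9 (0.14), Lin37 (0.08), Lin54 (0.01) and Lin52 (−0.37) had intervals that held 0, Lin54 and Lin52 under the minimum, and Rbbp4 had a ratio of 0.43. The pocket proteins Rb1 and Rbl2 were higher in bone marrow, with ratios of −0.91 and −0.75, and Rbl1 had −0.13, with an interval that held 0. E2f4 and E2f5, partners of those proteins, had ratios of 0.34 and 0.52, while E2f2 (0.65), E2f7 (0.88), E2f3 (−0.10) and Tfdp1 (0.85) were under the minimum. The NF-Y subunits had ratios of −0.50 (Nfya), −0.17 (Nfyb) and 0.70 (Nfyc), and Trp53 had 0.42.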

How the data were processed

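Per the labels' protocols, the sorted cells were made into droplet libraries with a Chromium Single Cell 3' kit, and the authors counted UMIs and removed barcodes not associated with a cell. The deposited matrices hold these raw counts per gene and barcode, with no normalization. The submitters' processing notes name the build mm10 and Seurat 4.0. An aligner or annotation release is not given in the sources used here. Gene and barcode lists, also deposited, hold no measurement and are of other content than a unit.

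Barcodes with under 500 genes or over 10% mitochondrial UMIs were left out (363 of 8946 in fetal liver, 109 of 7367 in bone marrow), which kept 91285900 and 29941097 UMIs. Doublets were not removed. Counts were summed per library and scaled to CPM, and 3 counts correspond to 0.0329 CPM for fetal liver and 0.100 for bone marrow. Ratios carry exact conditional 95% intervals and shares exact Clopper-Pearson ones (Python 3.11.15, scipy 1.17.1). The intervals of ratios treat each UMI as an independent count. They make no allowance for UMIs that come from the same cell, and so are narrower than a spread over cells would be. No p-values were computed. Thinning was without replacement, with seed 1. Gene coordinates are those of GENCODE M21 on mm10. Motifs were searched on both strands. The scripts were tested on simulated data. Full values were given for up to 3 genes of each role with at least 50 CPM and the largest absolute ratio and for the 1 with the smallest, and regulators by list. The genes and lists were chosen with earlier results of these data known. Alternatives were other scalings (edgeR 4.0.16 for a TMM factor, and a median-ratio factor), count minimums, depths, gates and cell filters.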

Additional observations from a re-analysis of the deposited data

How the results depend on the processing

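The median log2 ratio over the measured genes, 1.49, was 1.65 with a median-ratio size factor, 1.27 with no minimum and 1 CPM added, 1.97 with each cell given the same weight, 1.72 after thinning to 2000 UMIs, 1.29 with at least 1000 genes per cell and 1.89 without the 6% of cells with the most UMIs. A minimum of 50 CPM left 21 genes, 15 of them past 2-fold towards fetal liver; the other alternatives gave 25 to 33 against 29. The mitotic share, 23.8% in fetal liver and 5.71% in bone marrow, was 9.0% and 1.67% at 1000 UMIs, 34.6% and 10.4% at 3000 UMIs, 38.8% and 10.7% with at least 2 gate genes, 7.86% and 2.01% with at least 5, and 22.4% and 3.86% without the 6% of cells with the most UMIs. Another seed gave 22.6% in fetal liver, and a minimum of 1000 genes gave 6.56% in bone marrow. Across these settings the share in fetal liver was 3.34-fold to 5.80-fold that in bone marrow. The lowest value was at 3000 UMIs, which kept 8273 fetal liver and 4310 bone marrow cells. The median within the mitotic gate ranged from −0.19 to 0.16. Up to 4 genes were 2-fold apart within it, against 0 as reported. Lbr turned to 0.026 under the median-ratio factor. Within the gate at 1000 UMIs, G2e3 turned to 0.33, Kif23 to 0.50, Mki67 to 0.11 and Cenpa to −0.012; the cause was not tested. A TMM factor raised the median of all genes by 0.150 and the median-ratio factor by 0.179. No paired analysis was possible because each tissue had 1 library.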
